A study of Saccharomyces cerevisiae with 4 samples.

Results

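The 8 genes described here are the protein genes of the mitochondrial genome of budding yeast (Saccharomyces cerevisiae), COX1, COX2, COX3, COB, ATP6, ATP8, OLI1 and VAR1. They were found by their symbols in the platform's probe annotation, and each symbol was matched by its gene number to a locus of the mitochondrial chromosome. All 8 had at least 1 probe set, among 5656 genes that could be tested on 1 set each. A total of 14 probe sets were annotated to 1 member alone, and 6 more were annotated to COX1 or COB together with open reading frames inside their introns.

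The series held 4 single-colour Affymetrix arrays, 2 of a wild-type control strain and 2 of a strain with histone H3 K4,36,79R, in which lysines 4, 36 and 79 are replaced by arginine. Both strains were grown in selective medium with galactose and then moved to selective medium with glucose for 9 h, which shuts off a galactose-driven wild-type H3 and leaves the mutant H3 as the only source of the protein in the mutant cells. The series text calls the arrays of a group replicate cultures. Strain background, mating type and marker genes were not stated in the labels, nor was whether the control strain carried the same wild-type H3 construct.

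Yeast mitochondrial DNA has no histones, and is packed by the HMG-box protein Abf2. It is transcribed by the nuclear-encoded polymerase Rpo41 with its factor Mtf1 into long primary transcripts that are cut and spliced into mature RNAs, and each mRNA then needs its own nuclear-encoded activators to be translated. The proteins made from it are the membrane core of the respiratory chain and of ATP synthase, with a single ribosomal protein besides. Mature yeast mitochondrial mRNAs end at a conserved sequence motif and lack long poly(A) tails. The labels state that total RNA was turned into biotin-labelled cRNA, and name no primer. A signal therefore describes what was labelled, and the signals of different probe sets are not levels that can be ranked against each other.

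None of the 8 genes passed the test between mutant and wild type (limma, Benjamini-Hochberg adjusted p under 0.05 over 5656 genes), where 1.87% of all genes passed, 58 upward and 48 downward. Of the members 1, COX3, reached an unadjusted p under 0.05, beside 23.2% of all genes. The members' median log2 change, mutant minus wild type, was 0.04, and that of all genes was 0.02. Of the members 5 lay above 0 and 3 below, and of all genes 2944 lay above and 2712 below. The members above 0 include ATP8 and VAR1, which lay below the pseudocount on all 4 arrays. With dim genes left out, these 2 among them, the members' median was -0.02. On the scaled signals both mutant arrays lay above both wild-type arrays for 2 members, COX3 and OLI1, against 28.1% of all genes. Both lay below for 0 members, against 27.2% of all genes. With 2 arrays a group an exact permutation test cannot give a p under 0.333. All changes are on the scale of log2(signal + 5.71) after each array was scaled to the same median, so changes of dim probe sets are understated.

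**Figure D1:**
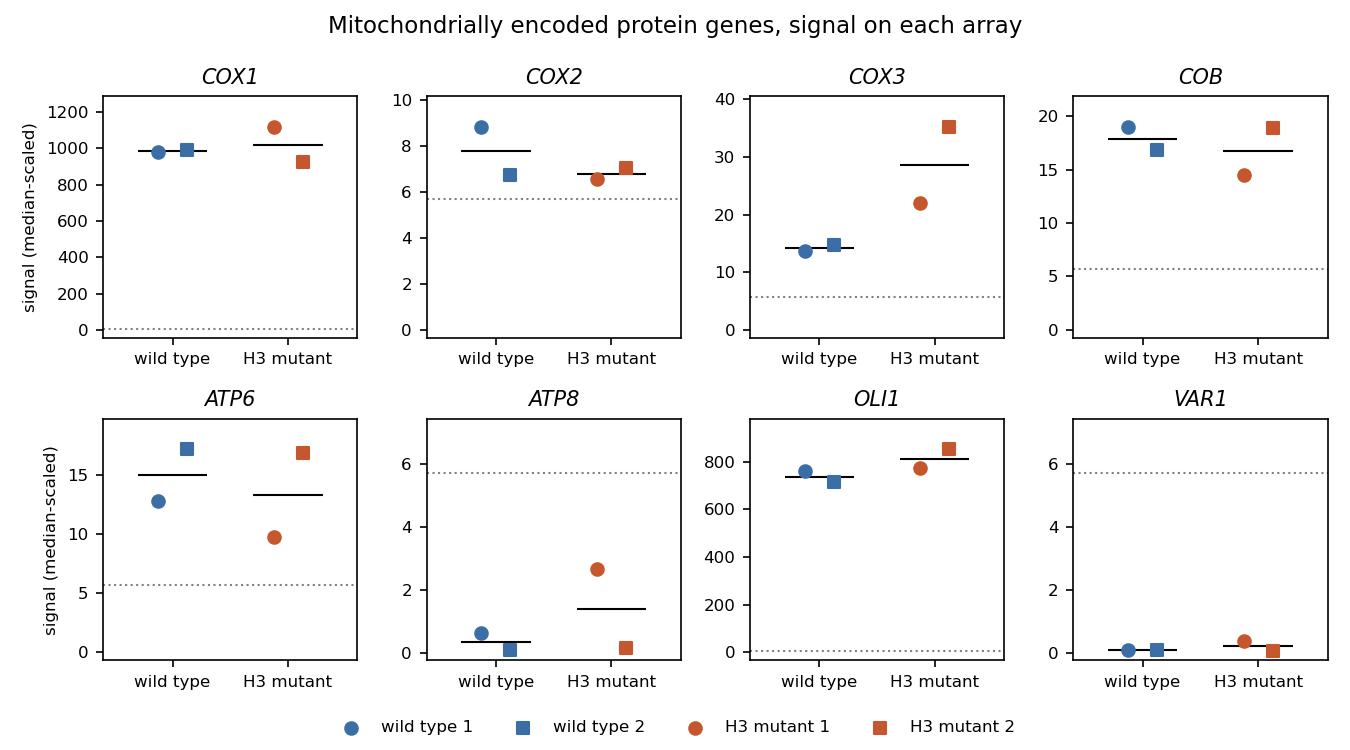
Median-scaled signal (y axis, linear, its own range for each gene) of the probe set used for each of the 8 genes, on 2 wild-type arrays (blue) and 2 H3 mutant arrays (orange). Black lines are group means and the dotted line is the pseudocount of 5.71. The mutant arrays stand above the wild-type arrays for COX3 and, by a narrow margin, for OLI1. ATP8 and VAR1 lie below the dotted line on all 4 arrays.

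Cytochrome c oxidase takes its catalytic core from COX1, COX2 and COX3. COX3 encodes the subunit of the core that carries no metal centre, and it showed the widest difference of the 8 genes. Its scaled signal was 13.7 and 14.7 on the wild-type arrays and 22 and 35.2 on the mutant arrays. Both mutant arrays were above both wild-type arrays, but they also lay far apart from each other. The means were 14.2 ± 0.704 and 28.6 ± 9.37 (SD, n = 2), a ratio of 2.02. The log2 change was 0.76 with an SE of 0.22 and a 95% interval from 0.25 to 1.27 that is not adjusted for the number of genes. The limma adjusted p was 0.108 over all genes, and 0.183 in a fit of all 9335 probe sets, so the difference did not pass in either. The change was 1.04 without mutant replicate 1 and 0.48 without mutant replicate 2. COX3 had a single probe set, so no further set was at hand to check it against.

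Within each array, where scaling cancels, COX3 was set against COX1, COB and OLI1, the other members whose sets exceeded all no-target control values (mouse genes and reverse strands) on all 4 arrays. The deposited signal of COX3 over that of COB was 0.718 and 0.871 in wild type, against 1.51 and 1.86 in the mutant. Over COX1 it was 0.0139 and 0.0148 in wild type, against 0.0196 and 0.0382 in the mutant, and over OLI1 it was 0.0179 and 0.0205, against 0.0284 and 0.0413. In all 3 ratios both mutant arrays stood above both wild-type arrays, with log2 changes of 1.08 for COB, 0.93 for COX1 and 0.84 for OLI1. These carry no pseudocount. The wild-type COX3 signal, and that of COB on mutant replicate 1 (14.6), lay just above the highest no-target control value of 13.2. The size of these changes is therefore uncertain. COX3 was taken for these ratios after it had shown the widest difference of the members, so they largely restate that difference. They share the same 4 COX3 values and are not separate evidence, and a changed ratio shows unequal change, not which gene changed.

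**Figure D2:**
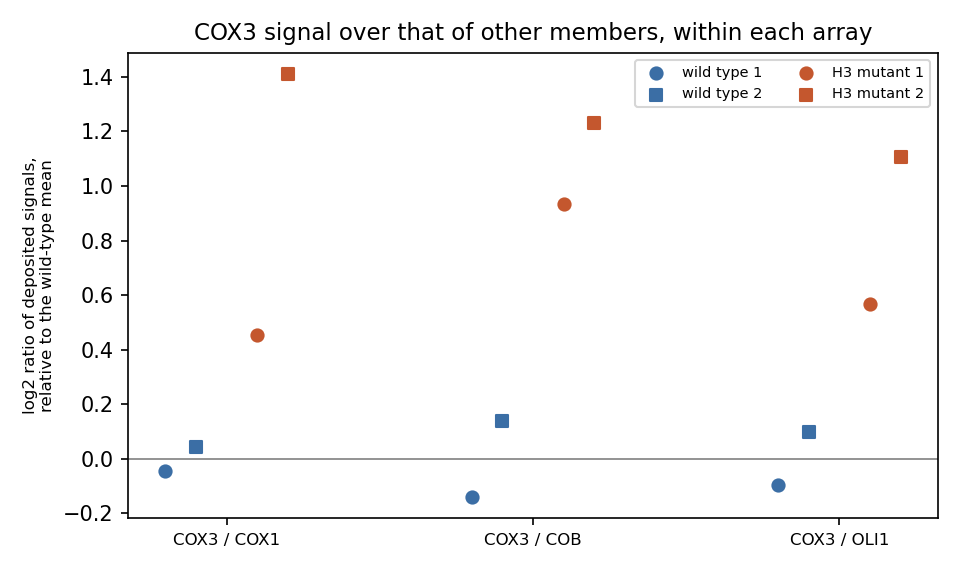
The y axis is the log2 ratio of the deposited COX3 signal to the signal of COX1, COB or OLI1 on the same array, set to a wild-type mean of 0. Each point is 1 array (blue wild type, orange H3 mutant). The mutant arrays lie above the wild-type arrays in all 3 ratios, with mean shifts from 0.84 to 1.08.

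COX1 encodes the subunit that holds the heme and copper site where oxygen is reduced. The probe set used for it, 4005_at, gave 979.9 and 990.5 in wild type, against 1119 and 923 in the mutant, so the mutant arrays lay on either side of the wild-type arrays. The means were 985 ± 7.50 and 1021 ± 138 (SD, n = 2). The log2 change of 0.04 had a 95% interval from -0.47 to 0.56 (limma adjusted p = 0.924). The other COX1 sets of 1 gene, 4007_at and 4008_at, changed by -0.14 and 0.07 on the log2 scale (adjusted p = 0.779 and 0.888 when limma was fitted to every set). Their groups overlapped as well, with 7.04 to 12.7 over the 4 arrays for 4007_at and 31.7 to 42.6 for 4008_at.

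COX2 encodes the subunit that takes electrons from cytochrome c. Its signal was 8.84 and 6.76 in wild type, against 6.56 and 7.05 in the mutant, close to the pseudocount, and the groups overlapped. The log2 change was -0.11 with a 95% interval from -0.46 to 0.25 (limma adjusted p = 0.707).

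COB encodes cytochrome b, the subunit of the bc1 complex to which the quinones bind. Probe set 3974_at gave 19 and 16.8 in wild type, against 14.6 and 19 in the mutant, a log2 change of -0.08 with a 95% interval from -0.49 to 0.33 (limma adjusted p = 0.819). The second COB set, 3975_at, gave 10.5 and 10.8 in wild type, against 8.56 and 14.3 in the mutant. The groups overlapped in both sets, and mutant replicate 2 was above mutant replicate 1.

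ATP synthase draws its proton channel from ATP6, ATP8 and OLI1. OLI1, which encodes the small subunit that forms the rotating ring, had a bright probe set, 3976_at, with 761.6 and 714 in wild type, against 773 and 852 in the mutant. On these scaled signals both mutant arrays were above both wild-type arrays, the nearest pair by a narrow margin. On the values as deposited both were below, with 853.1 and 823.5 in wild type, against 689.3 and 711.2 in the mutant. The means of the scaled signals were 738 ± 33.6 and 812 ± 56.3 (SD, n = 2). The log2 change was 0.14 with a 95% interval from -0.32 to 0.60 (limma adjusted p = 0.707). The other OLI1 set, 3993_at, was under 1 on all 4 arrays, from 0.179 to 0.671, so that the OLI1 result is that of 1 set.

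ATP6 encodes the subunit that carries protons to and from the ring. Its signal was 12.8 and 17.2 in wild type, against 9.8 and 16.9 in the mutant. Replicates within a group differed more than the group means did, and the log2 change was -0.14 with a 95% interval from -0.66 to 0.39 (limma adjusted p = 0.749). ATP8 encodes a small membrane subunit needed to assemble the enzyme. It was read by sets whose suffixes mark an incomplete probe set or dropped selection rules, and the one used gave 0.625 and 0.0867 in wild type, against 2.66 and 0.168 in the mutant. All 8 values of the ATP8 sets were below the pseudocount, so neither a level nor a change of ATP8 can be read from them.

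VAR1 encodes a protein of the small subunit of the mitochondrial ribosome, and is the only member whose product is not part of the respiratory machinery. Its signal was 0.0893 and 0.0867 in wild type, against 0.381 and 0.0839 in the mutant. Its second set ran from 0 to 0.19. Both sets carry the same kinds of suffix as those of ATP8, and both lay below the pseudocount on all 4 arrays, so that neither a level nor a change of VAR1 can be read from them.

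**Figure D3:**
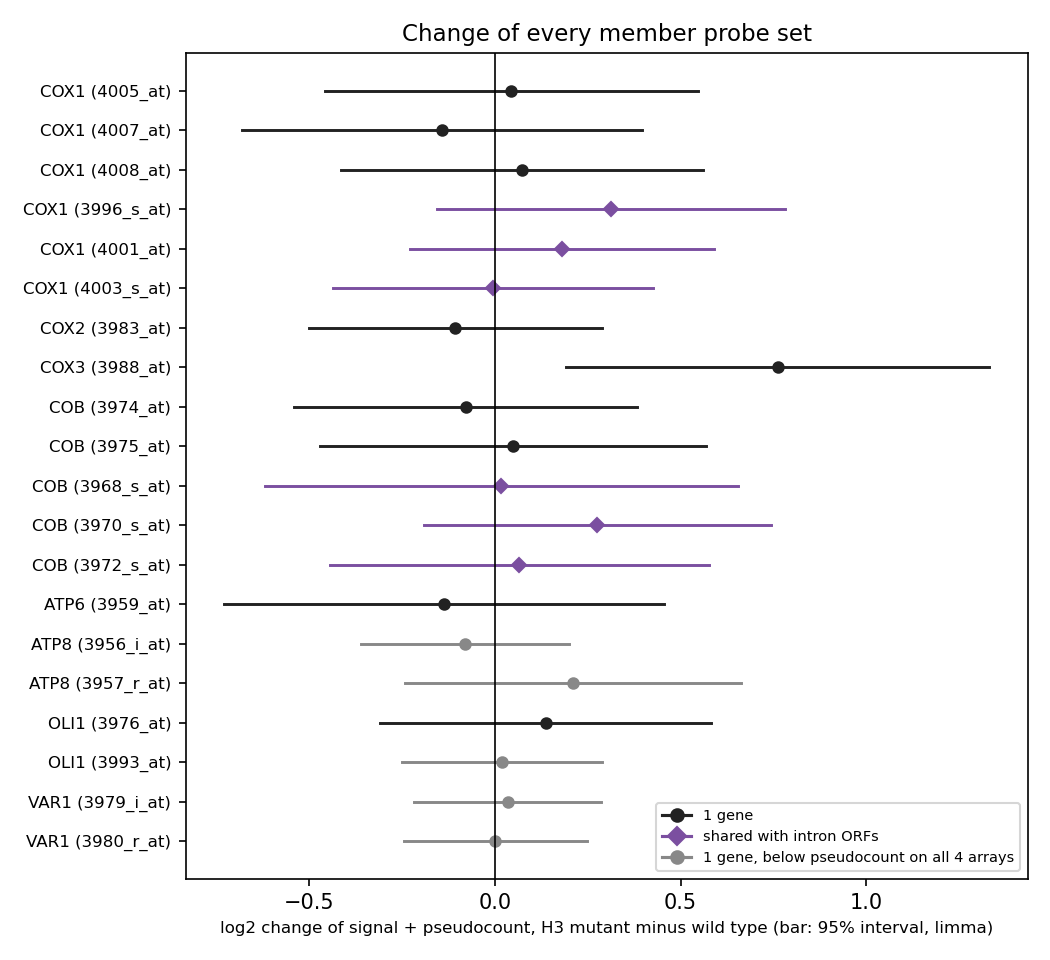
Log2 change of signal plus pseudocount, H3 mutant minus wild type (x axis), for the 20 probe sets annotated to a member, with 95% intervals of the limma fit of all 9335 probe sets. Circles are sets of 1 gene (grey where all 4 arrays lie below the pseudocount), and diamonds are sets shared with intron reading frames. The interval of COX3 alone lies off 0, and its adjusted p in this fit is 0.183.

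The 14 sets of 1 member differed in how far they stood above background. As a background, 13 control sets with no target in yeast (mouse genes and reverse strands), chosen after the data were seen, gave 0.0839 to 13.2, with 47 of 52 values below the pseudocount. COX1 (4005_at and 4008_at), COX3, COB (3974_at) and OLI1 (3976_at) exceeded all of these control values on all 4 arrays. The margin was narrow for COX3 on wild-type replicate 1 (13.7) and for COB on mutant replicate 1 (14.6). The second COB set, 3975_at, exceeded all of these control values on 1 array. ATP6 did so on 2 arrays, COX2 on none, and ATP8 and VAR1 on none. In 5 of the 14 sets, both of ATP8, both of VAR1 and 1 of OLI1, all 4 arrays were below the pseudocount. No member passed the test as lower in the mutant. In such bulk RNA a share of cells that have lost mitochondrial DNA could not be told apart from a lower level in every cell.

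COX1 and COB are the members with introns that hold reading frames, most of which are translated in frame with the exons before them into maturases, reverse transcriptases or homing endonucleases. The 6 sets shared between COX1 or COB and these frames all exceeded the no-target controls on all 4 arrays. None passed the test (0 of 6, where 0.343% of all 9335 probe sets passed), with log2 changes from -0.00 to 0.31 and adjusted p from 0.447 to 0.996. Set 3996_s_at, shared by COX1 and the frames from AI1 to AI5_ALPHA, gave 16.7 and 15.3 in wild type, against 24.4 and 18.4 in the mutant. Set 4001_at, shared by COX1, AI4 and AI5_ALPHA, gave 331 and 326 in wild type, against 412 and 338 in the mutant. After scaling, both mutant arrays were above both wild-type arrays for these and for 3970_s_at, shared by COB, BI3 and BI4. That holds for 26.5% of all probe sets. On the values as deposited both were below for 4001_at, with 371.3 and 375.5 in wild type, against 367.4 and 282.5 in the mutant. For 3996_s_at and 3970_s_at the deposited values of the groups overlapped.

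The 10 sets annotated to an intron frame alone, which cover 9 such frames, were low. None exceeded the highest no-target control value on any array. The brightest in wild type, that of AI5_ALPHA, gave 7.86 and 8.67 there and 9.13 and 9.14 in the mutant. The AI1 set gave 4.73 and 3.04 in wild type, against 5.33 and 4.19 in the mutant, and the BI4 set 3973_at gave 2.41 and 3.90 in wild type, against 5.14 and 4.78 in the mutant. The sets of SCEI, the homing endonuclease of the intron in the large ribosomal RNA, and of Q0255, a reading frame next to COX2, stayed below that value too. Over all 14 sets of these other mitochondrial loci 0 passed the test and 0 had an unadjusted p under 0.05, where 18.1% of all probe sets did, and the log2 changes ran from -0.12 for a BI4 set to 0.34 for BI3. Their low signal limits what a change could show.

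**Figure D4:**
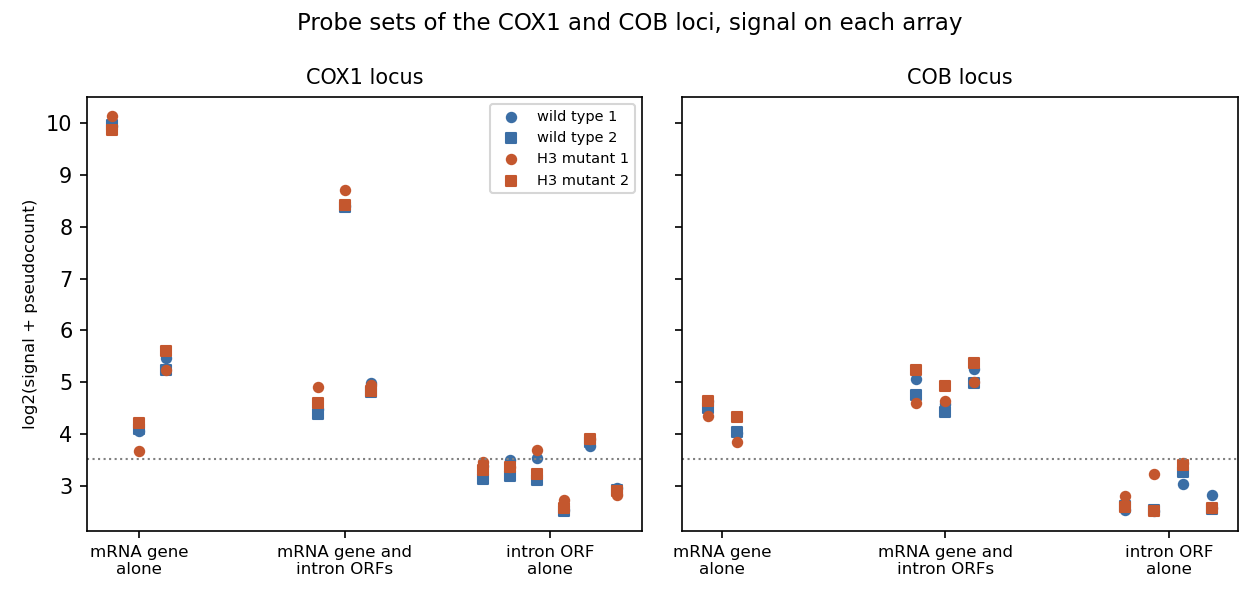
Log2 of signal plus pseudocount (y axis) on each array for the sets of the COX1 locus (left) and the COB locus (right), grouped by annotation to the mRNA gene alone, to the gene and its intron reading frames, or to an intron frame alone. Each column of points is 1 probe set, and the dotted line is a signal equal to the pseudocount of 5.71. Apart from AI5_ALPHA, and AI3 on 2 arrays, the sets of intron frames alone lie below that line, and all sets annotated to COX1 or COB lie above it.

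The genes of a common primary transcript could be compared only in part. COX1, ATP8 and ATP6 are neighbours in that order on the mitochondrial chromosome and are transcribed together, and of these COX1 had a log2 change of 0.04 and ATP6 of -0.14, both within their spread. OLI1 and VAR1 are likewise neighbours of a common transcript, but VAR1 was not measurable. COX3, the last of the members in the order of the chromosome, is transcribed apart from the other members.

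Signals of other RNAs without poly(A) tails were looked at beside those of the members, whose median log2 change was 0.04 (all genes 0.02). All 10 control sets for cytosolic ribosomal RNA read higher on each mutant array than on either wild-type array, with a median log2 change of 1.43. The 63 probe sets of genes with SNR names (small nuclear or nucleolar RNAs), looked at after the data were seen, had a median of 0.24. Both mutant arrays were above in 35 and below in 8, against 26.5% and 24.1% of all probe sets. Of their 252 values 43 were below the pseudocount. COX1, COB and OLI1 had log2 changes of 0.04, -0.08 and 0.14, and the median over 9 hybridization controls was 0.04. Whether the lack of a tail bears on any of these values, or on that of COX3, was not tested.

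The nuclear genes that act on mitochondrial DNA and its transcripts were described from lists, of which none was tested as a list. RPO41, the polymerase, had 67.9 and 67.3 in wild type, against 47.8 and 53 in the mutant, a log2 change of -0.39 (limma adjusted p = 0.194). Its factor MTF1 had 65.4 and 57.5 in wild type, against 49 and 38.1 in the mutant, a log2 change of -0.45 (adjusted p = 0.193). In both the mutant arrays lay below the wild-type arrays, and neither passed the test over all genes. ABF2, which packs the DNA, had 256 and 210 in wild type, against 316 and 350 in the mutant (log2 0.51, limma adjusted p = 0.153). The helicase gene PIF1 had the highest change of the list for transcription and DNA maintenance (0.65, adjusted p = 0.0898) and MTF1 the lowest. Of the 9 genes of that list 0 passed, where 1.87% of all genes did, and 4 had an unadjusted p under 0.05, where 23.2% of all genes did. The median was 0.17.

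A further list held 22 nuclear genes that act on the translation, processing or stability of particular mitochondrial mRNAs, translational activators among them. Of these 0 passed, 3 had an unadjusted p under 0.05 (23.2% of all genes did), and the median was 0.02. COX3 is served by PET54, PET122 and PET494, whose log2 changes were 0.11, 0.10 and -0.42 (limma adjusted p = 0.762, 0.716 and 0.244). PET494, the furthest from 0 of these, gave 27.8 and 31.1 in wild type, against 24.5 and 17.1 in the mutant. PET309 and MSS51, which act on COX1, had 0.06 and 0.27, and PET111, which acts on COX2, had 0.07. CBS1 and CBS2, for COB, had -0.12 and -0.00, and CBP1, which protects the COB mRNA from decay, had -0.00. AEP1 and AEP2, for OLI1, had -0.06 and -0.30. ATP22, for ATP6, had the highest change of the list at 0.41 (adjusted p = 0.188), with 30.4 and 31.8 in wild type, against 45.5 and 40.9 in the mutant, while CBT1 had the lowest at -0.56. SOV1, which is needed for VAR1, had 0.16.

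For RNA splicing, processing and decay 15 of 18 listed genes were measured, 0 passed, 3 had an unadjusted p under 0.05, and the median was -0.00. The mitochondrial nuclease gene NUC1 was lowest at -0.79 (limma adjusted p = 0.123). The RNA helicase gene SUV3 was highest at 0.80 (adjusted p = 0.491), on wild-type arrays that read 53.1 and 6.24. Of 42 measured genes for assembly and membrane insertion 0 passed, with a median of 0.08, and 12 had an unadjusted p under 0.05, near the 23.2% of all genes. OXA1, whose product inserts mitochondrially made proteins into the inner membrane, was the lowest of them. It gave 231.7 and 254 in wild type, against 147 and 161 in the mutant, a log2 change of -0.64 (limma adjusted p = 0.0799), and COX11, of copper insertion, was the highest at 0.86 (adjusted p = 0.327).

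The nuclear-encoded partners in the same complexes did not pass either. Of 10 nuclear cytochrome c oxidase genes 8 lay above 0, with a median of 0.13 and extremes of -0.32 for COX5B and 0.38 for COX12. Of 9 bc1 genes 6 lay above 0, with a median of 0.11 and extremes of -0.43 for QCR10 and 0.75 for CYT1. Of 14 ATP synthase genes 13 lay above 0, with a median of 0.24 and extremes of -0.15 for ATP2 and 1.10 for ATP19. Of 31 measured partners of VAR1 in the small ribosomal subunit 13 lay above 0, with a median of -0.07 and extremes of -0.58 for MRPS9 and 0.47 for MRP51. Limma adjusted p was at least 0.153 in all 4 of these groups, where 1.87% of all genes passed. An unadjusted p under 0.05 was reached by 0, 1, 3 and 4 genes in the order given, against 23.2% of all genes. Over all genes 2944 lay above 0 and 2712 below. No difference between these groups and the mitochondrially encoded genes was tested.

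The mean profile of the 8 members over the 4 arrays, as deviations from each gene's mean log2 value, was -0.04 and -0.07 in wild type, against 0.01 and 0.10 in the mutant. Most of it came from COX3, since the mean log2 change was 0.11 over the 8 genes and 0.02 over the 7 others. The 5 other genes nearest to it by Euclidean distance over the 4 arrays were YKR018C, ABD1, PSG1, PSK1 and RRT8, at distances from 0.00570 to 0.0274. The log2 changes of these 5 genes ran from 0.11 to 0.13, with limma adjusted p from 0.648 to 0.717. OLI1 lay nearest to the mean among the members (0.0667) and COX3 furthest (0.737). ATP6 (0.465) and ATP8 (0.444) also lay beyond the median distance of 0.413 over the 5648 other genes. Each member is part of the mean, which shortens its distance, so members and other genes cannot be compared by it. ATP8 and VAR1, whose signals cannot be read, are part of the mean as well.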

How the data were processed

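The deposited values are MAS5 intensity values on a linear scale, per the submitters' processing notes; their MAS5 version was not stated, and detection calls were not used here. Each of the 4 arrays was rescaled so that its median over 9335 probe sets equalled the average of all 4 medians, since deposited medians ran from 27.8 to 38.4. Log2 was taken after adding 5.71 (the pseudocount), which is percentile 20 of the scaled signals. Probe sets with 1 symbol (6504) gave 5656 genes, each on 1 set, without a suffix where there was one and then the brightest. Names came from the platform annotation and the reference gene table of assembly R64. No coordinates or sequences are given.

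Mutant minus wild type was fitted in R 4.3.3 by limma 3.58.1 (eBayes with a mean-variance trend; two-sided; Benjamini-Hochberg adjusted p under 0.05), groups being taken from the sample titles. Precision is limited by the number of arrays. The p-values rest on the spread between 2 cultures a group, with each gene's variance drawn toward that of genes of similar signal. They do not measure a gene's own spread alone. Replicates correlated with r = 0.986 in wild type and 0.983 in the mutant over all genes, and arrays of different groups with 0.959 to 0.975. The fitting step was tested on simulated data.

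The members, lists and rules were chosen with earlier results of these data known. Named were all probe sets of the members and other mitochondrial loci, RPO41, MTF1, 13 activators, list genes past the test, the highest and lowest gene of each list and the 5 nearest profiles. ABF2 and individual control sets were added after the values were seen. Results were recomputed with other scalings, other pseudocounts, dim genes left out, other probe set rules, other variance models, a replicate block and leaving out each array.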

Additional observations from a re-analysis of the deposited data

How the results depend on the processing

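Under 14 of 15 alternatives 0 of the members measured passed. The exception was the replicate block, under which 1 passed, COX3 (limma adjusted p = 0.00689), together with 425 genes higher and 283 lower in place of 58 and 48. No label ties replicate numbers to a common culture or day. The differences between replicates 1 and 2 in the 2 groups correlated at -0.02 over all genes. That shows no shared replicate effect, but cannot exclude that the arrays were paired. The log2 change of COX3 was above 0 under all 15, from 0.45 on the values as deposited to 1.04 without mutant replicate 1. For ATP8 and VAR1, which the filter on dim genes removed, and for COX1, ATP6, COB, OLI1 and COX2, the sign changed under at least 1 alternative.

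The values as deposited moved the median of all genes to -0.32 and that of the members to -0.29, and 1065 genes were then lower. Genes called higher numbered 38 with trimmed-mean scaling and 92 with the filter on dim genes. With every probe set in the fit 11 were higher and 21 lower, without a trend 30 were lower, and with a robust trend 159 were higher and 118 lower. Leaving out 1 array gave 0 to 196 genes higher and 0 to 85 lower, the 0 arising without either mutant array. The causes were not tested. Signals near the level of no-target controls limit what COX2, ATP6, ATP8, VAR1, COB and, in wild type, COX3 can show.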

Other observations

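In 3 of the 151 measured genes of the mitochondrial lists the wild-type arrays differed by over 1.5 on the log2 scale, and in each wild-type replicate 1 was the higher. SUV3 read 53.1 and 6.24 in wild type against 40.2 and 40.8 in the mutant, COX11 read 66.5 and 17 against 60.6 and 75.4, and ATP19, a small subunit of ATP synthase, read 429.6 and 82.6 against 409 and 418. Over all 5656 genes replicate 1 was higher by that much in 44 and replicate 2 in 3, while 0 genes differed by that much between the mutant arrays in either direction. For SUV3, COX11 and ATP19 wild-type replicate 1 lay close to the mutant arrays and replicate 2 apart from them. The cause was not tested.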
